A study of Zea mays with 4 samples.

Results

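The maize genes named zrp (Zea root preferential) were cloned as transcripts that accumulate mainly in roots. Members were taken as probe sets with a single annotated gene whose symbol or synonym is zrp followed by a number. That rule found 1 gene with 1 probe set, zrp4 (LOC542706), out of 1108 genes with 1452 named probe sets on the Affymetrix Maize Genome array. Other zrp genes, if the array has probe sets for them, carry no such name in the annotation used here. All results on zrp4 rest on this single group of oligonucleotide probes.

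The series compared 2 maize lines (Zea mays) in a study of cell wall diversity and digestibility. Of the 4 arrays, 2 carried untreated F98902, called a line of bad digestibility, and 2 carried untreated Cm484, called a line of good digestibility. Plants of both lines were kept in a greenhouse at 22 °C in the day and 20 °C at night with 14 h of light, and were taken at flowering, 24 h before ovulation. No mutation, transgene or treatment is named for either line, and each kind of digestibility is represented by 1 line only. The labels contradict each other on the organ, with stem under growth and root under RNA extraction, and they do not say whether the replicates came from different plants. Any p-value here thus reflects the scatter of these 4 samples, part or all of which could be technical.

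The zrp4 transcript is known from maize roots, where it was located mainly around the endodermis, the innermost cell layer of the cortex that carries suberin. Its protein resembles plant O-methyltransferases, enzymes that move a methyl group from S-adenosylmethionine to a hydroxyl group of a small molecule. Enzymes of this kind act in grasses on lignin precursors, on flavonoids and on benzoxazinoids, the defence compounds of maize seedlings. The name is not unique: the reference annotation gives ZRP4 as a synonym of a second gene as well, LOC100147731 or Bx7, a benzoxazinoid O-methyltransferase. Bx7 lies on the same chromosome with 146 annotated genes between it and zrp4, and the array annotation ties no probe set to it. Of the 2 genes with a zrp name in the reference, 1 was thus measured.

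Because the labels name both root and stem, the organ bears directly on a gene called root-preferential. None of the root marker symbols sought (rth1, rth3, rth5, rtcs, rtcl, rum1, lrp1 and bige1) had a named probe set. A root identity could thus not be checked with root markers. Most green tissue markers were present in both lines, with 16 of 20 probe sets for 13 genes at or above 5 (log2), the value used here as detection, on all 4 arrays. Among those that fell short, me3 (LOC542233) read 3.39 and 3.40 in F98902 against 3.51 and 3.60 in Cm484. In the same group, pep1 (LOC542372) read 5.50 and 4.35 in F98902 against 2.18 and 2.15 in Cm484. The rest were single probe sets of C4ppdkZm1 and CP24, genes detected by other probe sets. Of the 16 detected on all 4 arrays, Cab-m7 was highest, at 13.65 and 13.72 in F98902 against 13.24 and 13.28 in Cm484. The lowest was psad1 (LOC541791), at 8.01 and 7.89 in F98902 against 5.49 and 5.81 in Cm484. Which organ such levels come from was not tested. Of the 16 probe sets of this list that were tested, 10 were called as higher in F98902 and 1 as higher in Cm484, leaving 5 uncalled (called means a limma adjusted p under 0.05). The 10 are not 10 separate genes, as C4ppdkZm1 and CP24 each have several probe sets among them. A further C4ppdkZm1 probe set, with a difference of 0.007 (log2), was not called. Over all 10131 probe sets tested, 17.7% were called as higher in F98902 and 17.1% as higher in Cm484. The summed level of the list was 15.91 and 15.86 (log2) on the F98902 arrays, against 14.94 and 15.17 on the Cm484 arrays. All 5 markers of secondary walls and xylem, which include cesa10, cesa11 and bk2, were detected on every array, and 0 of the 5 were called by limma (2 had an unadjusted p under 0.05), against 34.9% of all probe sets tested. Their summed level was 13.96 and 13.89 on the F98902 arrays, against 14.48 and 14.18 on the Cm484 arrays. The endosperm symbols took in 15 probe sets, including some of genes of other kinds (f3h, a flavonoid enzyme gene, and zfl1, a LEAFY-like gene), and 14 of the 15 were below detection on all arrays. The exception was the ADP-glucose pyrophosphorylase gene bt2 (LOC541902), which read 5.54 and 6.10 in F98902 against 4.34 and 4.56 in Cm484. It was called as higher in F98902, by at least 1.77-fold, as both Cm484 readings are below detection. Only probe sets at or above 5 on at least 2 arrays were tested, so bt2 passed through F98902 alone and its direction was fixed. No probe set carried a pollen or anther marker name. With bulk tissue, fewer cells of a type and less RNA per cell cannot be told apart. Whether the balance of tissues differs between the lines in a way that touches zrp4 was not tested.

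Between 54.8% and 55.2% of probe sets reached detection on each array, and the correlation over probe sets was 0.979 between the F98902 arrays, 0.982 between the Cm484 arrays and 0.765 to 0.790 between arrays of unlike lines. The F98902 replicates stood apart from each other in the 5 detected probe sets at the 5′ ends of maize housekeeping transcripts. Relative to the average of the remaining arrays these lay at a median of 0.86 (log2) on replicate 1 and -0.83 on replicate 2, against 0.26 and -0.22 on Cm484 replicates 1 and 2. The 5 probe sets at the 3′ ends lay at 0.12 and 0.00 on F98902 replicates 1 and 2, against -0.04 and -0.13 on the Cm484 arrays. F98902 replicate 2 came from 120.7 ng of RNA, against 312.4 to 416.8 ng for the other samples. The zrp4 difference is given with and without each F98902 array.

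The zrp4 signal was present in Cm484 and below detection in F98902. The probe set read 2.34 and 2.07 (log2) on F98902 replicates 1 and 2, against 8.83 and 8.59 on Cm484 replicates 1 and 2. Both F98902 arrays were low and both Cm484 arrays high, and the groups did not overlap. The means were 2.21 ± 0.19 in F98902 and 8.71 ± 0.17 in Cm484 (SD, n = 2 each). The lowest Cm484 array lay 6.24 above the highest F98902 array, a measured gap whose F98902 end is below detection.

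**Figure D1:**
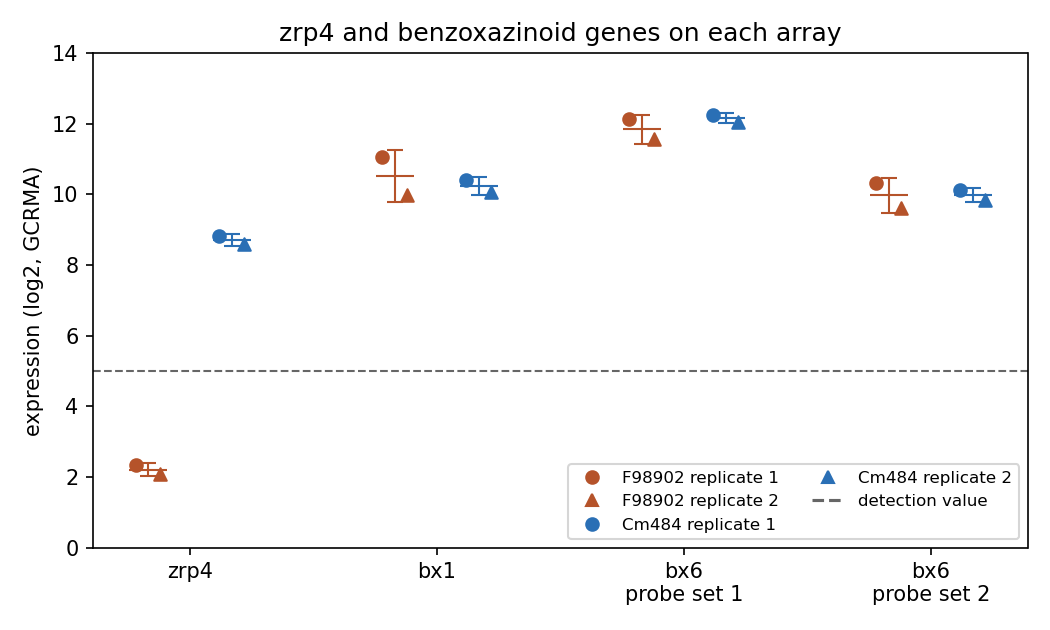
Expression (log2, GCRMA) of zrp4 and of the probe sets of the benzoxazinoid genes bx1 and bx6, with F98902 left of Cm484 for each. Points are single arrays, bars are mean ± SD (n = 2) and the dashed line is the detection value of 5. Only zrp4 lies on opposite sides of that line, at 2.34 and 2.07 in F98902 and 8.83 and 8.59 in Cm484, while every bx value is above it.

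Since a value under 5 gives only a bound, zrp4 was at least 13.1-fold lower in F98902 than in Cm484. The measured values differed by -6.50 ± 0.19 (log2, SE), with a 95% confidence interval from -6.97 to -6.03, and the adjusted p in limma was 5.64e-05. These figures take the F98902 readings below detection at face value, so the interval does not give the precision of the transcript difference. Of all 10131 probe sets kept, 34.9% were called in either direction and 17.1% were called as higher in Cm484. A call in itself was therefore common among these probe sets. Because zrp4 passed the filter on low values through its Cm484 arrays alone, the direction of its difference was fixed by that filter. Fewer probe sets shared its detection pattern. Of those kept, 404 (3.99%) were under 5 on both F98902 arrays and at or above 5 on both Cm484 arrays, and 74 (0.73%) were also at or above 8 on both Cm484 arrays, as zrp4 was. The value of 8 was not planned beforehand and lies just under both Cm484 readings of zrp4, so the 0.73% depends on that choice. Among the 890 kept probe sets with a named gene, 28 (3.15%) had the first pattern. An exact permutation test of 2 against 2 arrays cannot give a two-sided p below 0.333.

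**Figure D2:**
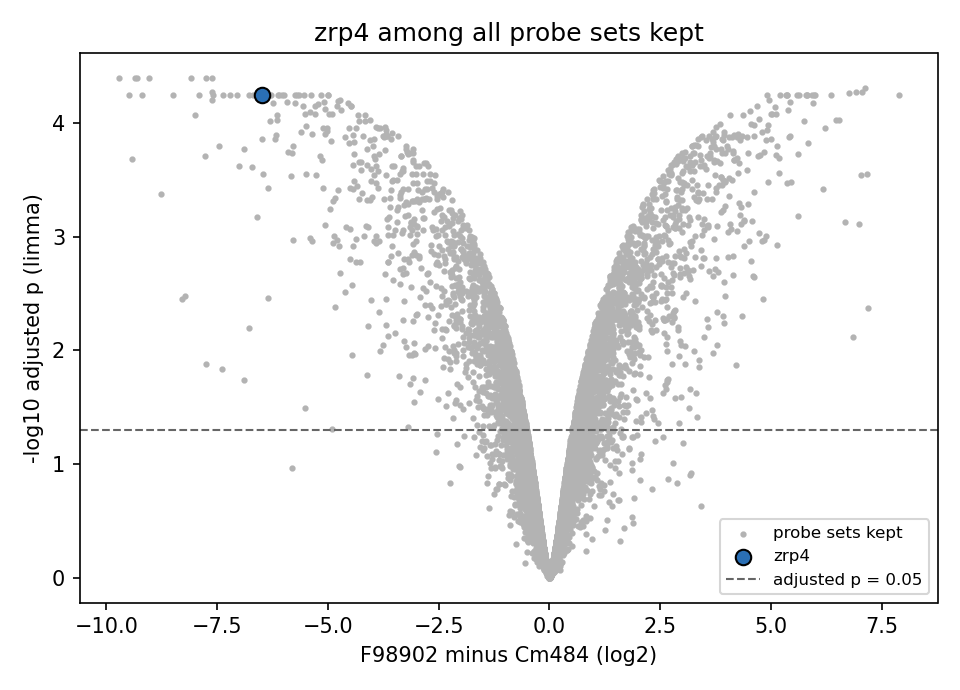
Difference between the lines (F98902 minus Cm484, log2) against -log10 of the limma adjusted p for the 10131 probe sets kept, with zrp4 marked and a dashed line at an adjusted p of 0.05. zrp4 sits on the left arm at -6.50, together with other probe sets of similar difference and p, and its F98902 value is below detection.

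Without F98902 replicate 1 the measured zrp4 difference was -6.63 (limma adjusted p = 0.000988), without F98902 replicate 2 it was -6.36 (limma adjusted p = 0.000993), and over the 4 fits that leave out 1 array it lay between -6.63 and -6.36. The zrp4 replicates differed by 0.27 in F98902 and by 0.24 in Cm484, against median absolute replicate differences of 0.21 and 0.19 over all probe sets kept. In F98902 the 0.27 was large for a value near background: of 7710 probe sets under 5 on both F98902 arrays the median replicate difference was 0.04, and 10.7% had a larger one than zrp4. A lower level of the transcript in F98902 and a poorer match of the probes to the F98902 allele cannot be told apart with 1 probe set.

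The named genes whose pattern was most like that of zrp4 were found by centring each of the 10131 probe sets on its own mean and taking the Euclidean distance over the 4 arrays. The nearest 5 with a named gene were expB7 (LOC542649), PP2C (LOC542176), ivr2 (LOC542324), zmm24 (LOC542038) and gar2 (LOC541620). The beta-expansin gene expB7, for a wall-loosening protein, lay at a distance of 0.37, with 2 unnamed probe sets nearer. It read 3.24 and 3.37 in F98902, against 10.22 and 9.77 in Cm484. PP2C, for a protein phosphatase, lay at 0.62 with 4.33 and 4.79 in F98902, against 10.77 and 10.86 in Cm484. A second PP2C probe set lay far off, at 5.53, with values of 8.82 and 9.11 in F98902 and 10.01 and 9.90 in Cm484. The vacuolar invertase gene ivr2 lay at 0.93, the MADS-box gene zmm24 at 1.17 and gar2 at 1.41. Because they were chosen by nearness to zrp4 on these same arrays, all 5 were low on both F98902 arrays and high on both Cm484 arrays. The Cm484 replicates of ivr2 (12.28 and 10.74) and gar2 (7.99 and 6.54) lay further apart than those of zrp4. The distances use values below detection in F98902 for zrp4 and for the other genes except 1 array of ivr2, and such readings have no order among themselves.

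**Figure D3:**
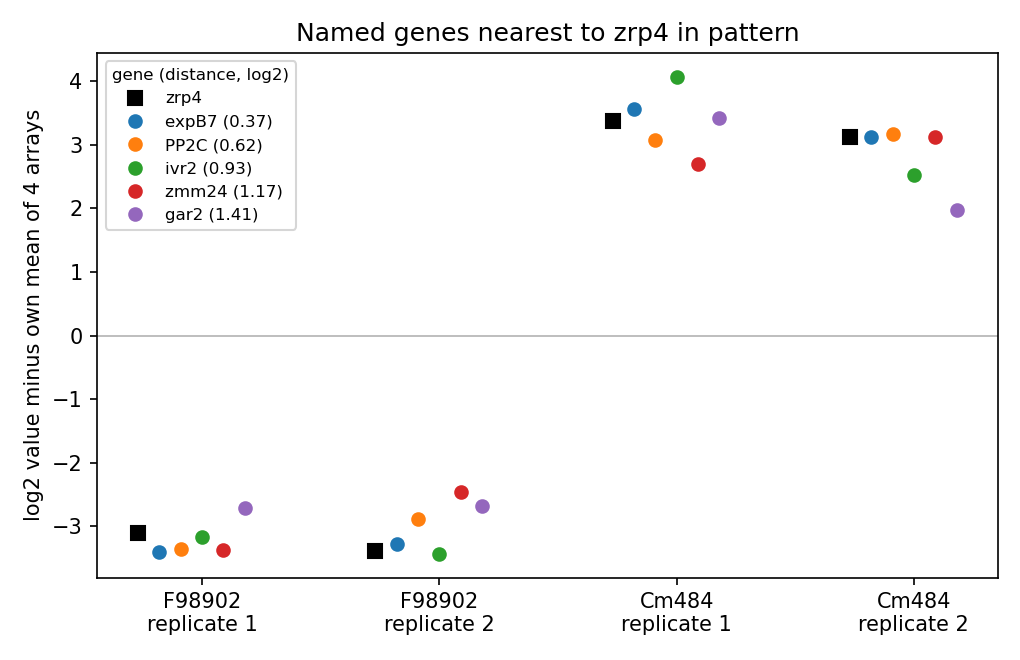
Log2 value minus the probe set's own mean of 4 arrays, for zrp4 (black squares) and the 5 nearest named probe sets (circles, with the distance in brackets), on the F98902 arrays at left and the Cm484 arrays at right. The 5 were chosen by nearness to zrp4, so all 6 are negative on both F98902 arrays and positive on both Cm484 arrays. Of the 6, ivr2 and gar2 differ most between the Cm484 replicates.

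No probe set of another small-molecule methyltransferase was found by symbol (omt, comt, ccoaomt, fomt, bm3, Bx7 or bx10), and none of another root gene by the symbols listed for them, so neither group can be set beside zrp4. Since ZRP4 is also a name of Bx7, the other benzoxazinoid genes on the array were looked up, a choice made after the values of zrp4 were seen. They were bx1 (LOC542117), which makes indole in the first step of the pathway, and bx6 (LOC541977), a dioxygenase of a later step, with 3 probe sets in all. All 3 were detected on every array and 0 were called by limma (0 also at an unadjusted p under 0.05), against 34.9% of all probe sets kept. The bx1 probe set read 11.04 and 9.99 in F98902, against 10.40 and 10.06 in Cm484. Its groups overlapped, and the difference was 0.29 (95% interval -0.66 to 1.23, limma adjusted p = 0.601). The bx6 probe sets read 12.12 and 11.55 in F98902 against 12.25 and 12.06 in Cm484, and 10.31 and 9.63 in F98902 against 10.13 and 9.85 in Cm484. Their differences were -0.32 (interval -0.92 to 0.29) and -0.02 (interval -0.71 to 0.68), with limma adjusted p of 0.355 and 0.972. The median difference of the 3 was -0.02, and that of all probe sets kept was also -0.02. The sign of bx1 turned to -0.24 without F98902 replicate 1, and that of the second bx6 probe set turned to 0.33 without F98902 replicate 2 and to 0.12 without Cm484 replicate 1.

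The nearest named genes around zrp4 on its chromosome were also compared, again a choice made after its values were seen, by gene order in the reference annotation. The 5 nearest genes with a named probe set on each side were taken, and none adjoins zrp4: the closest on either side had 13 annotated genes between it and zrp4, and the farthest had 182 on one side and 198 on the other. Of their 11 probe sets 8 were kept, each for a different gene, and all 8 were detected on all 4 arrays in both lines. Of these 8, 3 were called as higher in F98902 (17.7% of all probe sets kept were), 1 as higher in Cm484 (17.1% were), and 4 were not called. None of them shared the detection pattern of zrp4, which only 3.99% of all probe sets kept had. At that share, none among 8 is unremarkable. The closest gene before it was Lhcb5-2 (LOC542320), for a light-harvesting protein, with 12.10 and 12.24 in F98902 against 10.55 and 10.63 in Cm484, a difference of 1.58 ± 0.16 (SE, limma adjusted p = 0.00163). The closest after it was IDI2, with 8.99 and 9.16 in F98902 against 8.97 and 8.73 in Cm484, a difference of 0.23 ± 0.17 (SE, limma adjusted p = 0.365).

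Farther out, sig2A (LOC541716), for a plastid sigma factor, was higher in F98902 by 1.32 ± 0.20 (SE, limma adjusted p = 0.00606), with 7.27 and 7.56 in F98902 against 5.95 and 6.24 in Cm484. The protein disulfide isomerase gene pdi (LOC606409) was higher by 0.75 ± 0.18 (SE, limma adjusted p = 0.0273), a call lost without F98902 replicate 2 (adjusted p = 0.109) or with either Cm484 array left out (adjusted p = 0.123 without replicate 1 and 0.0624 without replicate 2). GIF2 (LOC100101545), named for a growth-regulating factor partner, was the 1 called in the direction of zrp4, at -0.86 ± 0.15 (SE, limma adjusted p = 0.0103), and was not called without Cm484 replicate 1 (adjusted p = 0.0503). The alcohol dehydrogenase gene adh2 (LOC542364), the aquaporin gene SIP1-1 (LOC542494) and LOC542538 had differences of -0.12, 0.25 and 0.67. LOC542538 was called without F98902 replicate 1, at 0.99 (limma adjusted p = 0.0291), and adh2 stood at 0.02 without Cm484 replicate 2. The 3 probe sets not kept belong to the zein genes z1C1_20 and z1C2, for seed storage proteins, and were below detection on every array.

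**Figure D4:**
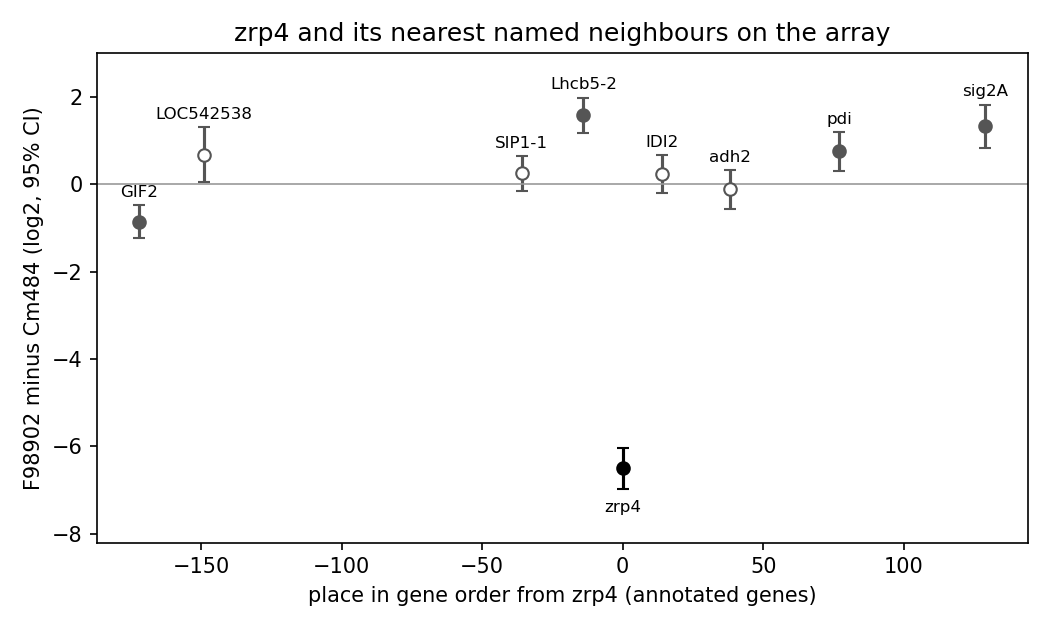
Difference between the lines (F98902 minus Cm484, log2) with its 95% confidence interval for zrp4 and for the 8 neighbouring genes kept, by place in the annotated gene order from zrp4. Filled points were called and open points were not; the neighbours lie between -0.86 and 1.58, and zrp4 lies at -6.50, a value that rests on readings below detection in F98902.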

How the data were processed

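The values deposited by the authors are on the log2 scale, 17734 probe sets on 4 arrays, and were made with GCRMA in R 2.6.2, per the submitters' processing notes. What else was done is not stated there. The 113 control probe sets were left out of tests. Names came from the platform annotation, updated by gene identifier to the RefSeq annotation of Zm-B73-REFERENCE-NAM-5.0, in which 1060 of 1108 named genes were found; it was used for names and gene order only. Probe sets at or above 5 (log2) on at least 2 arrays were kept, which left 10131. The difference F98902 minus Cm484 was fitted without covariates by lmFit and eBayes of limma 3.58.1 (R 4.3.3). The test was two-sided, on 2 residual degrees of freedom plus a prior of 3.26. Benjamini-Hochberg adjustment was over all probe sets kept, and called means an adjusted p under 0.05. The number of arrays limits the precision. The gene, the lists and the naming rule (every zrp probe set, the 4 members with the lowest p among those called in a list, and the 5 nearest patterns) were chosen with earlier results of these data known. Lists matched symbols and synonyms only, as the annotation holds no descriptions: other root genes, small-molecule methyltransferases, lipid transfer and proline-rich proteins, and the tissue markers. The alternatives were 2 other filters, 2 normalizations, a replicate block, an intensity trend, array weights, leaving out probe sets of shared sequence, and leaving out each array. In the fits without an array the lone sample of a line is assumed to vary like the other line, and the probe sets kept stay the same.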

Additional observations from a re-analysis of the deposited data

How the results depend on the processing

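The zrp4 probe set was called as higher in Cm484 under all 12 alternatives run, with differences from -6.63 to -6.36 (F98902 minus Cm484, log2) and limma adjusted p from 3.14e-05 to 0.00187, the highest with no filter. Because zrp4 was kept through its Cm484 arrays alone, that direction was fixed in advance in every fit that used a filter. The alternatives also reuse the same arrays. The bound of zrp4 in Cm484 over F98902 follows the detection value, 26.1-fold at a value of 4 and 6.53-fold at 6, both chosen after seeing the data. The number of probe sets called was 3533, and 2205 to 2706 with 1 array left out, the lowest without Cm484 replicate 1 and then 2339 without F98902 replicate 2; these fits have fewer samples. With the replicate number as a block it was 2983, and zrp4 stayed at -6.50 (adjusted p = 0.000531). Deviations of same-numbered arrays correlated at -0.02 across the lines over the probe sets kept, which gives no evidence of pairing by number there. The 5′ housekeeping ends did lie higher on replicate 1 than on replicate 2 in both lines (0.86 and -0.83 in F98902, 0.26 and -0.22 in Cm484). Whether same-numbered arrays were handled together was not tested. Uncalled differences that changed sign were bx1 (-0.24 to 0.81 with 1 array left out), the second bx6 probe set (-0.36 to 0.33, and 0.025 after quantile normalization again) and adh2 (-0.27 to 0.022). The cause of these changes was not tested. Values under 5 carry little signal over background.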

Other observations

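The list of lipid transfer and proline-rich protein genes held 14 probe sets for 9 genes, of which 9 were kept, 2 were higher in F98902, 2 were higher in Cm484 and 5 were not called. Over all probe sets kept, 17.7% were called as higher in F98902 and 17.1% as higher in Cm484. The median difference of the list was 0.28, the value of PPO (LOC542554), against -0.02 for all probe sets kept. PPO and prpo2 (LOC541866) were matched because prpo1, a synonym of PPO, and prpo2 begin with prp. Neither is named as a protein of these kinds. The symbols also took in genes of other kinds: prpl35-1 (LOC542046), a plastid ribosomal protein name, was higher in F98902 by 1.14 ± 0.16 (SE, limma adjusted p = 0.00483). The hydroxyproline-rich wall protein gene HRGP (LOC542371) was at least 1.92-fold higher in F98902, with 6.33 and 5.56 in F98902 against 2.73 and 2.59 in Cm484. It was kept through its F98902 arrays alone, so the filter fixed that direction. A second HRGP probe set was below detection on every array and was not tested. It read 4.43 and 4.99 in F98902 against 2.85 and 2.67 in Cm484. A phospholipid transfer protein gene, PLTP, was lower in F98902 (-3.68 ± 0.54, SE, limma adjusted p = 0.00601) in 1 probe set, with 7.40 and 7.03 in F98902 against 11.73 and 10.07 in Cm484. That difference was -2.85 when Cm484 replicate 1 was left out and -4.51 when Cm484 replicate 2 was. The other kept PLTP probe set read 6.08 and 6.34 in F98902 against 5.24 and 3.45 in Cm484, where 1 array is below detection, and was not called (limma adjusted p = 0.0585). It was called with either Cm484 array left out, at a measured 2.76 without replicate 1, where the remaining Cm484 reading is below detection, and at 0.97 without replicate 2. plt2 (LOC542343), also for a phospholipid transfer protein, was lower in F98902 (-2.80 ± 0.58, SE, limma adjusted p = 0.0182), and was not called with no filter (adjusted p = 0.0928) or without F98902 replicate 1 or F98902 replicate 2 (adjusted p = 0.0703 and 0.0683). Its difference was -1.89 when Cm484 replicate 1 was left out and -3.71 when Cm484 replicate 2 was.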
